A study of Mus musculus with 2 samples.

Results

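The genes described are the class I phosphoinositide 3-kinase (PI3K) subunits and the adaptor Pik3ap1, 10 of the 49492 genes in the count table. They were taken by symbol with earlier results of these data known, and fall into 5 broadly expressed subunits (Pik3ca, Pik3cb, Pik3r1, Pik3r2 and Pik3r3) and 5 leukocyte-type genes (Pik3cd, Pik3cg, Pik3r5, Pik3r6 and Pik3ap1). Basal cells of WT adult female mouse mammary glands, sorted as lin-CD24+CD29hi, were grown in 3D matrix, and bulk RNA of the colonies and organoids was sequenced. The co-culture took 11 to 14 days, and no separate time is stated for the ctrl library. The ctrl cells grew alone. The M2 cells shared the well with bone marrow-derived macrophages of C57/B6 mice that had been polarised with IL-4 and IL-13 and sat in a porous insert, renewed during the culture. Both groups received EGF and an insulin-containing supplement (ITS), and the strain of the basal cell donors is not stated. Each group holds 1 library, so every interval given here covers counting error only and the spread between cultures is unknown.

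Class I PI3K is a dimer of a catalytic p110 subunit and a regulatory subunit, and it turns the membrane lipid PIP2 into PIP3, which recruits AKT and other kinases. The subunits p110α (Pik3ca) and p110β (Pik3cb) and their p85-type partners serve growth factor and insulin receptors in most tissues, including the mammary epithelium, whereas p110δ (Pik3cd) and p110γ (Pik3cg) are best known from white blood cells. The study asked whether PI3K signalling takes part in the action of macrophages and TNF-α on basal cells. From immunoblots it reported PI3K activation under M2 co-culture, and a PI3K inhibitor weakened the effect of M2 on colony size. Transcript levels do not measure the activity of the kinase.

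Sequencing gave 26912610 gene reads for ctrl and 29413844 for M2. Among 19233 genes with at least 10 reads over both libraries, 8.16% were called higher and 6.55% lower in M2, at an adjusted p under 0.05 (two-sided exact binomial test, Benjamini-Hochberg adjustment over all genes tested) and at least a 2-fold difference. This test compares the libraries, not the conditions. Basal markers summed to 208816 reads in ctrl against 219170 in M2, and 6 of its 7 genes were not called, the other being the oxytocin receptor gene Oxtr with 8324 and 1920 reads (log2 fold difference -2.18). Luminal markers summed to 89650 and 72650 reads. Of the 9 genes, 5 were called lower, namely Elf5, Foxa1, Esr1, Prlr and Kit, by -1.11 to -1.94 on the log2 scale. The other 4 were not called. Of these, Krt8 had 29888 and 36348 reads (log2 fold difference 0.21), and Krt18 (-0.05), Gata3 (-0.11) and Krt19 (-0.78) were lower. In bulk samples, fewer cells of a type and less RNA per cell cannot be told apart.

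The broadly expressed subunits carried nearly all PI3K reads in both libraries, and none of the 5 was called. The leukocyte-type genes were scarce in ctrl, and 3 of the 5 (Pik3cd, Pik3r5 and Pik3ap1) were called higher in M2. Of the 10 genes, 9 passed the filter on low reads, 3 of them were called higher, 0 lower and 6 not called, against a background of 8.16% higher and 6.55% lower of all genes tested. Pik3r5 and Pik3ap1 passed the filter through their reads in M2 alone, so the count of called members does not describe 10 equally measurable genes.

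**Figure D1:**
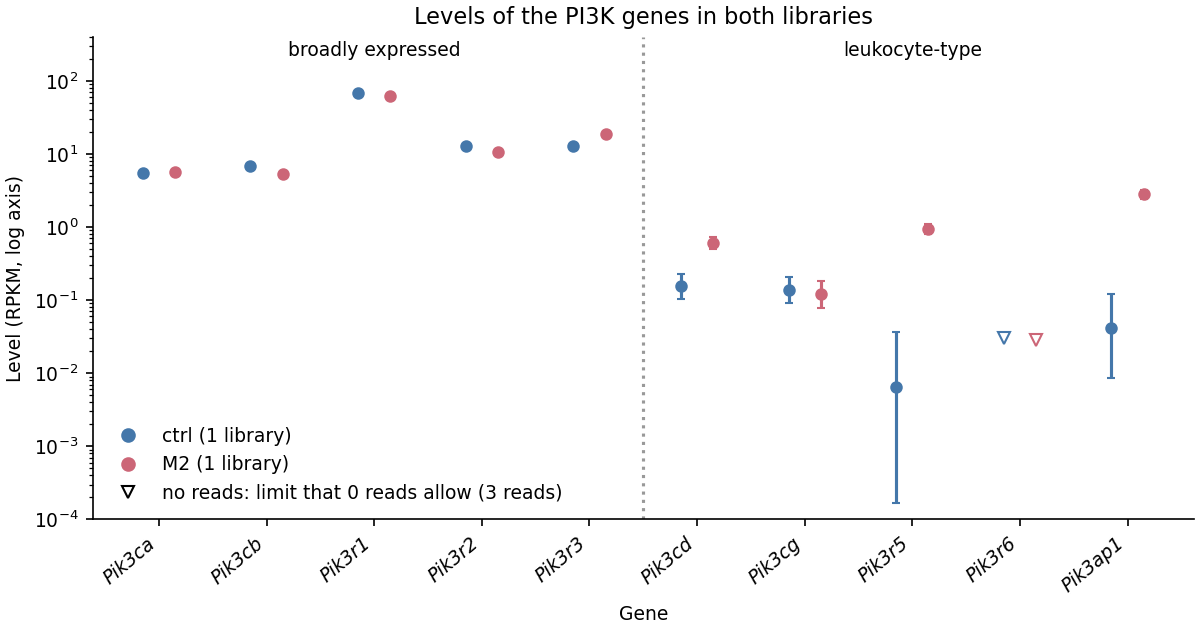
Level of each gene in reads scaled by gene length and library size (RPKM, log axis). The ctrl (blue) and M2 (red) library are shown with 95% counting intervals and 1 library per group. Open triangles mark the floor of 3 reads for a gene with 0 reads. The broadly expressed genes lie between 5.26 and 68.4 RPKM in both libraries, and every leukocyte-type gene lies at 2.81 RPKM or below.

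Levels between genes were compared per length, in RPKM (reads scaled by exon length and library size). In ctrl the order ran from Pik3r1 (68.4 RPKM) through Pik3r3 (12.9), Pik3r2 (12.8), Pik3cb (6.80) and Pik3ca (5.44) to Pik3cd (0.157), Pik3cg (0.139), Pik3ap1 (0.0418) and Pik3r5 (0.00656). The counting intervals of Pik3r3 and Pik3r2 overlapped, as did those of each pair of neighbours from Pik3cd down to Pik3r5, so these neighbours could not be ordered at this depth. In M2 the order was Pik3r1 (61.8 RPKM), Pik3r3 (18.8), Pik3r2 (10.6), Pik3ca (5.72), Pik3cb (5.26), Pik3ap1 (2.81), Pik3r5 (0.950), Pik3cd (0.610) and Pik3cg (0.123). Here Pik3ca and Pik3cb were the only neighbours with overlapping intervals. Pik3ap1 and Pik3r5 thus stood above both leukocyte-type catalytic genes in M2, with intervals apart, while in ctrl both had lower values than these genes.

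Among the catalytic genes, Pik3ca (chr3:32397671-32468486 on GRCm38, plus strand), which encodes p110α, the isoform that insulin and EGF-type receptors mainly use, had 1357 reads in ctrl and 1498 in M2. These reads nearly matched after scaling, with a log2 fold difference of 0.07 (95% counting interval -0.03 to 0.18, adjusted p = 0.259 by the exact binomial test). Pik3cb (chr9:99036654-99140621, minus strand) encodes p110β, which can also be driven by G protein-coupled receptors, and had 1344 reads in ctrl against 1091 in M2. Its log2 fold difference of -0.37 (-0.49 to -0.25) was larger than counting error (adjusted p = 1.27e-09, exact binomial test) but under 2-fold, so it was not called.

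Pik3r1 (chr13:101680563-101768217, minus strand) encodes p85α and its shorter forms, which stabilise the p110 subunits and hold them inactive until a receptor binds. Its reads numbered 18948 in ctrl and 17945 in M2, a level above that of 97.0% and 96.5% of detected genes, and a log2 fold difference of -0.15 (-0.18 to -0.12, adjusted p = 6.69e-22, exact binomial test). Pik3r2 (chr8:70768176-70776713, minus strand), the gene of p85β, had 1463 and 1277 reads, with a log2 fold difference of -0.27 (-0.37 to -0.16, adjusted p = 5.54e-06). Both genes had fewer scaled reads in M2, at a size far below the 2-fold threshold.

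Pik3r3 (chr4:116221618-116303056, plus strand), which encodes p55γ, went the other way. It had 1885 reads in ctrl against 2879 in M2. This is 0.54 on the log2 scale (0.46 to 0.63, adjusted p = 1.81e-36, exact binomial test) or 1.46-fold, and the gene was not called. Of its 5300 exon bases, 1289 (24.3%) are shared with a gene model on the same strand, RP23-276M23.6, whose reads differed likewise (880 and 1383, log2 fold difference 0.58), so the reads of these genes cannot be assigned with certainty. Pik3r2 shares 45 bases (1.08% of its length) with a model on the opposite strand, and no other member shares exon bases with another gene. Whether the counting used strand is not stated. In edgeR's exactTest, Pik3r3 reached an adjusted p under 0.05 at an assumed coefficient of variation of 0.1 and not at 0.2.

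**Figure D2:**
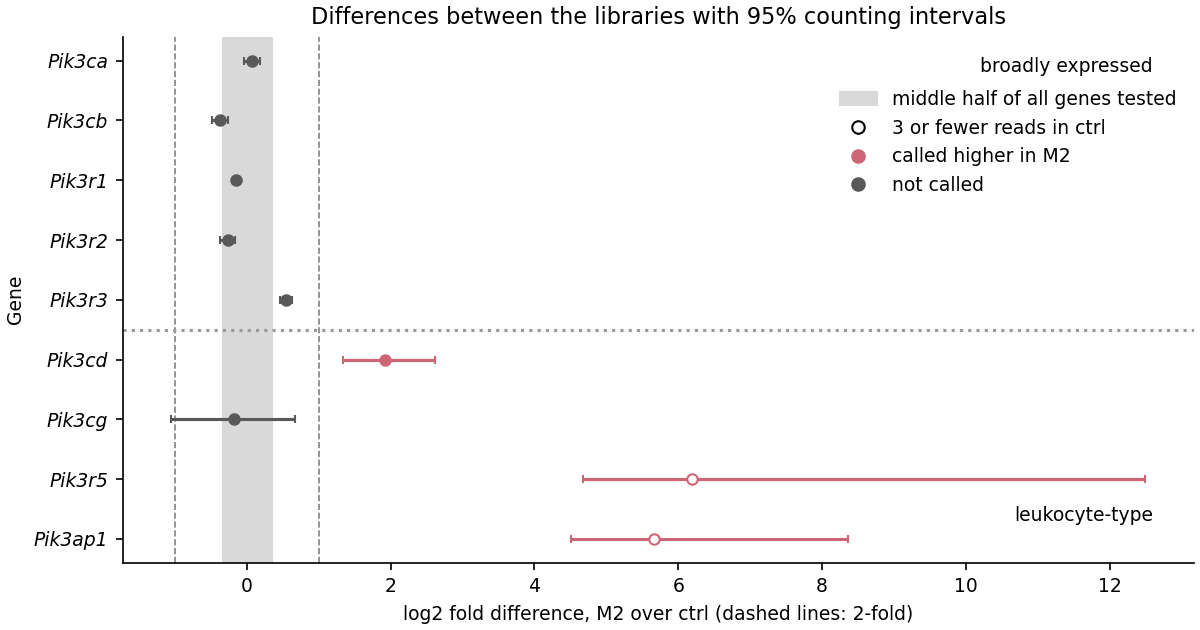
Log2 fold difference in reads, M2 over ctrl, for the 9 members tested, with 95% counting intervals; the grey band spans the quartiles of all genes tested (-0.32 to 0.35), dashed lines mark 2-fold and open markers have 3 or fewer reads in ctrl. The broadly expressed genes lie within 2-fold, whereas Pik3cd, Pik3r5 and Pik3ap1 lie beyond it with their whole intervals.

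Summed over the 5 broadly expressed genes, ctrl had 24997 reads and M2 24690, with a log2 ratio of -0.09 (-0.11 to -0.06). This sum is mostly Pik3r1, and without that gene the sums were 6049 and 6745 and the sign turned, to 0.09 (0.04 to 0.14). The leukocyte-type genes summed to 57 reads in ctrl against 498 in M2, and the log2 ratio was 3.06 (2.66 to 3.48) or 8.33-fold (6.32 to 11.2). Their share of all PI3K reads was 0.228% in ctrl (0.176 to 0.295) against 1.98% in M2 (1.81 to 2.16, 95% Wilson intervals). The leukocyte-type share was therefore higher in M2 and still a small part of the whole. The size of this ratio depends on the members and the scale. The log2 ratio was 2.34 without the adaptor gene Pik3ap1, 2.56 without Pik3r5 (56 and 346 reads) and 3.70 per kilobase. For the 2 catalytic genes alone, Pik3cd and Pik3cg, it was 1.27 (0.80 to 1.76) or 2.41-fold, from 53 reads in ctrl and 134 in M2.

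The promoter windows of the leukocyte-type genes are shown because Pik3ap1, Pik3r5 and Pik3cd were called higher while Pik3cg, of the same class, was not. Each window runs from 250 bases before to 50 bases after a RefSeq start site on GRCm38.p6, in the direction of the gene. Capitals mark matches, on either strand, to any of 6 motifs: ETS-type GAGGAAG, AP-1 TGANTCA, FOXO GTAAACA, STAT TTCNNNGAA, hypoxia response ACGTG and an NF-kB-type motif (GGG, any 2 bases, T, any 2 bases, CC). The windows lie at chr19:41385053-41385352 (minus strand) for Pik3ap1, chr11:68431875-68432174 (plus strand) for Pik3r5, chr4:149698659-149698958 (minus strand) for the most upstream of 3 start sites of Pik3cd, and chr12:32208610-32208909 (minus strand) for the more upstream start site of Pik3cg.
Pik3ap1: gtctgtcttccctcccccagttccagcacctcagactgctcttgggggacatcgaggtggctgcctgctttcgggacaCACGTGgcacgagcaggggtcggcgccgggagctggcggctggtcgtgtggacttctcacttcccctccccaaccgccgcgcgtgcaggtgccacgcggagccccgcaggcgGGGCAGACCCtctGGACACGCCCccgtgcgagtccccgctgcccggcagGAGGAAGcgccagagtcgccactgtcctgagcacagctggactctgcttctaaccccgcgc
Pik3r5: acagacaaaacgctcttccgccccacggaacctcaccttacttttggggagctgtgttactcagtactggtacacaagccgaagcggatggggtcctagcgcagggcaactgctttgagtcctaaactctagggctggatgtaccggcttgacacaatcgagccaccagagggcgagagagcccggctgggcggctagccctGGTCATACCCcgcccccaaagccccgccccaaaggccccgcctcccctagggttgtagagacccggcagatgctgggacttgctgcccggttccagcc
Pik3cd: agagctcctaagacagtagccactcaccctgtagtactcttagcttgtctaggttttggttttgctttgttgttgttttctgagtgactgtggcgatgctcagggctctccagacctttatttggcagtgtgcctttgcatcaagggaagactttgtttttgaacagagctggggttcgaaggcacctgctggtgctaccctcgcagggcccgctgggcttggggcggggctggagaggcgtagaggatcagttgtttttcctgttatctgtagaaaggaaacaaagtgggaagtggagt
Pik3cg: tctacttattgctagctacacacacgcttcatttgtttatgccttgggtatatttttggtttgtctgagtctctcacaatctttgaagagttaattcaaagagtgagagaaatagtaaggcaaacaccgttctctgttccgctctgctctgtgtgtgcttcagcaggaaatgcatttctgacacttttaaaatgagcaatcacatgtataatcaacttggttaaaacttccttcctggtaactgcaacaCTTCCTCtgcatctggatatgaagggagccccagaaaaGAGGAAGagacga

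The windows held different sets of matches. In Pik3ap1 the capitals are an ETS-type match 11 bases before the start, NF-kB-type matches at -60 and -47, and a hypoxia response match at -172 that overlaps its own reverse complement. The Pik3r5 window holds a single match, NF-kB-type, at -48. The Pik3cd window shown holds none, while its second start site has a hypoxia response match at -164 and an NF-kB-type match at 40. The Pik3cg window holds ETS-type matches at -1 and 37. Over 32851 windows of 27025 genes, the ETS-type letters were found in 13.6%, the NF-kB-type in 18.4%, hypoxia response in 19.6%, AP-1 in 7.81%, STAT in 8.30% and FOXO in 3.65%. RefSeq windows matched 9 of the 10 genes, 15 windows in all. Of these, 4 held the ETS-type letters, 7 the NF-kB-type, 3 hypoxia response, 1 AP-1, 1 FOXO and 0 STAT. The NF-kB-type letters did not separate called from uncalled genes. They also lay in windows of the uncalled Pik3cb (-75), Pik3r1 (-207), Pik3r2 (-147 and -51) and Pik3r3 (-86). The 4 windows with ETS-type letters belong to 3 genes, since the overlapping windows of Pik3cg hold the same matches. GC content was 69.7% in the Pik3ap1 window, 62.0% in Pik3r5, 51.0% in Pik3cd and 40.7% in Pik3cg, against a median of 52.7% over all windows. The windows not shown held 68.0% and 54.0% for Pik3cd and 44.0% for Pik3cg, so these values depend on the start site. A match is a run of letters and not evidence of a bound factor.

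Pik3cd (chr4:149649168-149702571, minus strand) encodes p110δ, the catalytic subunit that B cell, T cell and cytokine receptors use. It had 27 reads in ctrl against 110 in M2, that is 0.157 and 0.610 RPKM, with a difference of 1.92 on the log2 scale (1.34 to 2.62) or 3.78-fold (adjusted p = 1.06e-11, exact binomial test). Although called higher, it stayed far below Pik3ca, at a ratio per length of 0.0289 in ctrl and 0.107 in M2. The call depends on the variation between cultures that is allowed for: in edgeR's exactTest, with the biological coefficient of variation set to 0.2, the adjusted p was 0.00364, and with 0.4 it was 0.666. Pik3cg (chr12:32173473-32208659, minus strand), the gene of p110γ, which G protein βγ subunits activate, had 26 and 24 reads. Its log2 fold difference of -0.18 had a wide interval (-1.05 to 0.67, adjusted p = 0.761, exact binomial test), which holds both equal levels and a 2-fold lower level in M2. The 2 leukocyte-type catalytic genes were level with each other in ctrl (ratio per length 1.13) and not in M2 (4.97).

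Pik3r5 (chr11:68432121-68497849, plus strand) encodes p101, a regulatory partner of p110γ. It had 1 read in ctrl against 152 in M2, a scaled ratio of 144.9 with a counting interval of 25.6 to 5760, so the lower limit on the log2 scale was 4.68 (adjusted p = 6.45e-42, exact binomial test). Its usual partner Pik3cg was not called, and in M2 the ratio of Pik3r5 to Pik3cg per length was 7.74. Pik3r6 (chr11:68503019-68552698, plus strand), which lies downstream of Pik3r5 on the same strand and encodes the other p110γ partner, had 0 reads in both libraries. The floor of 3 reads used here is for this gene 0.0302 RPKM in ctrl and 0.0287 RPKM in M2. No difference was detectable at this depth.

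Pik3ap1 (chr19:41274218-41385070, minus strand) encodes BCAP, an adaptor that couples the B cell receptor and Toll-like receptors to p85. It had 3 reads in ctrl against 212 in M2, that is 0.0418 and 2.81 RPKM. The scaled ratio was 67.4 with a counting interval of 22.7 to 329, and the lower limit on the log2 scale was 4.51 (adjusted p = 7.74e-56, exact binomial test). In M2 it had the highest level of the leukocyte-type genes, and its interval did not overlap that of Pik3cb above it. Pik3r5 and Pik3ap1 were also called with an assumed coefficient of variation of 0.4, at adjusted p of 8.49e-05 and 0.000112 in edgeR's exactTest.

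The make-up of the enzyme was compared as each gene's share of the reads per kilobase of its kind. Among catalytic transcripts, Pik3cb was ahead in ctrl with 54.3% (52.4 to 56.1) against 43.4% (41.5 to 45.2) for Pik3ca. In M2 the shares were 44.9% (43.0 to 46.8) for Pik3cb and 48.8% (46.9 to 50.7) for Pik3ca, and the levels of these genes in RPKM had overlapping intervals there. By reads without length, Pik3cb held 48.8% and Pik3ca 49.3% in ctrl, and 40.1% and 55.0% in M2. Pik3cd took 1.25% (0.861 to 1.82) in ctrl and 5.21% (4.34 to 6.23) in M2, while Pik3cg took 1.11% and 1.05%, with overlapping intervals. By reads without length, Pik3cd and Pik3cg together held 1.92% of the catalytic reads in ctrl and 4.92% in M2.

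Among regulatory transcripts, Pik3r1 held 72.7% in ctrl and 67.0% in M2, and Pik3r2 held 13.5% and 11.5%. Pik3r3 took 13.8% in ctrl and 20.4% in M2, and its shared exons leave that share uncertain. Pik3r5 took 1.03% (0.880 to 1.21) in M2 and had 1 read in ctrl. Regulatory transcripts exceeded catalytic ones per length by similar factors, 7.51 in ctrl and 7.87 in M2. These ratios are of transcripts and do not give the stoichiometry of the proteins.

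**Figure D3:**
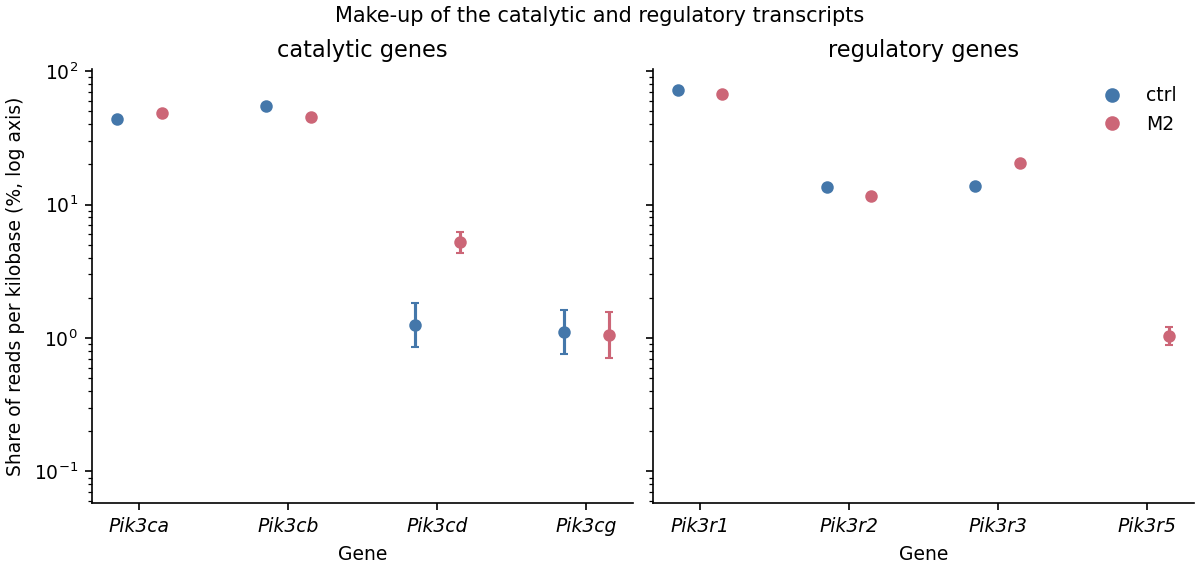
Share of each catalytic gene (left) and regulatory gene (right) in the reads per kilobase of its kind, in percent on a log axis, with 95% counting intervals and 1 library per group. Pik3cd lies at 1.25% in ctrl and 5.21% in M2, and Pik3r3 at 13.8% and 20.4%; Pik3r5 in ctrl (1 read) lies below the axis and Pik3r6 had 0 reads.

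Because the 3 called genes are known from white blood cells, the markers of such cells are given beside them. Counts of called markers, here and in the next paragraph, are to be read beside the shares over all genes tested. These shares were 8.16% higher and 6.55% lower. Among 12 pan-leukocyte genes, Ptprc (CD45), Laptm5 and Rac2 had 0 reads in both libraries, and 6 of the 12 had 3 or fewer reads in both. The transcription factor gene Spi1 (PU.1) had 0 reads in ctrl and 1 in M2. The list summed to 7062 reads in ctrl against 6308 in M2, most of them from Arhgdib (423 and 4981 reads, log2 fold difference 3.49, called higher), and Cytip (6403 and 1080, -2.64, called lower). The other 3 genes tested, Ikzf1 (186 and 217 reads), Itgb2 (35 and 22) and Cd52 (10 and 5), were not called. Among 15 macrophage genes, Adgre1 (F4/80), Tyrobp, Fcer1g, C1qb and C1qc had 0 reads in both libraries, and 9 had 3 or fewer in both. Their sum was 281 reads in ctrl against 285 in M2, and 0 of the 3 genes tested were called by the exact binomial test, Cd68 (170 and 165 reads) and Csf1r (94 and 92) having the most reads.

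Of 7 M2 polarisation genes, 2 were tested and 1 was called higher, the scavenger receptor gene Cd163 (2 and 30 reads, lower limit on the log2 scale 1.86). Cd163 passed the filter on low reads through its reads in M2 alone. Arg1, the arginase gene, had 1507 and 2090 reads and was not called. T and B cell markers summed to 8 and 21 reads, and all 8 neutrophil and mast cell markers had 0 reads. Endothelial markers summed to 64 and 93 reads, with Pecam1 called higher (33 and 76, log2 fold difference 1.11). Cdh5 (11 and 2) and Kdr (11 and 0) were called lower. Their limits nearest to 0 on the log2 scale were -0.33 and -1.40, so a difference under 2-fold lies within the interval of Cdh5. Fibroblast markers summed to 9060 and 3871 reads, with Dcn called higher (1.53) and Pdgfrb (-2.28), Col1a2 (-1.68) and Col3a1 (-2.61) called lower. The part of leukocytes, macrophages, endothelial cells, fibroblasts and luminal cells in the PI3K differences was not tested.

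**Figure D4:**
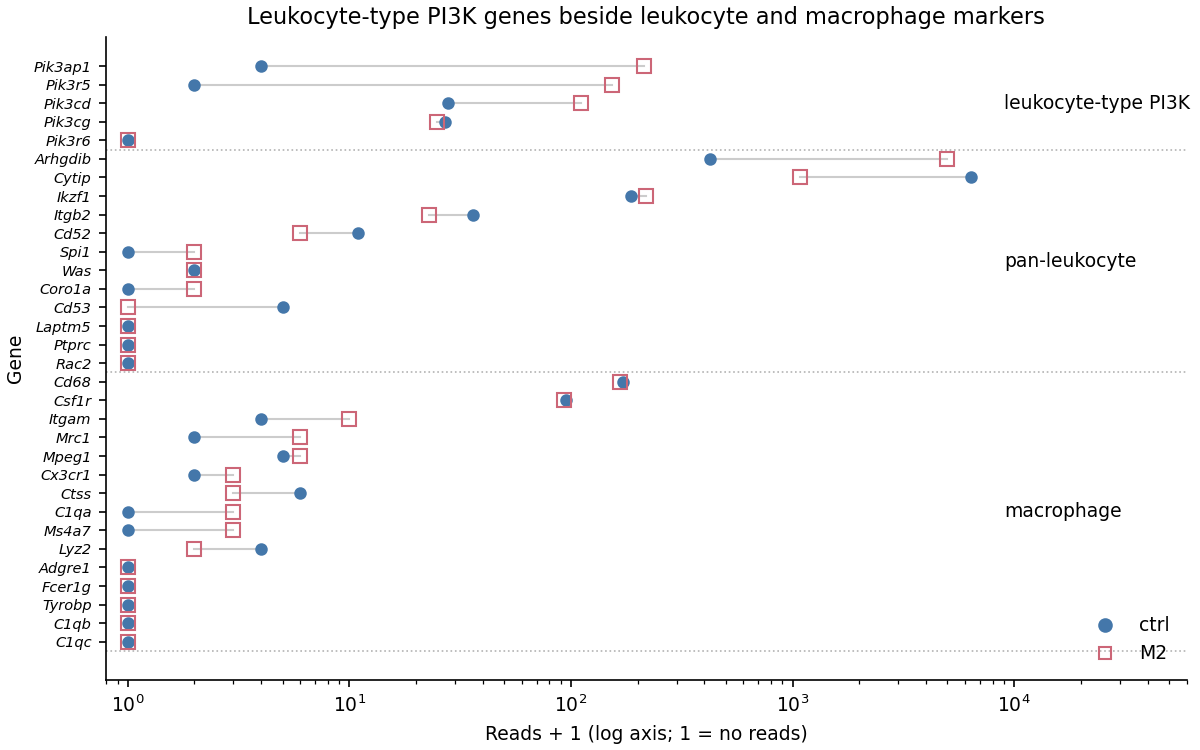
Reads plus 1 (log axis) in ctrl (filled) and M2 (open squares) for the leukocyte-type PI3K genes, 12 pan-leukocyte markers and 15 macrophage markers, with 1 library per group. Pik3ap1, Pik3r5 and Pik3cd have 110 to 212 reads in M2, where the markers range from 0 reads, as for Ptprc and Adgre1, through 92 for Csf1r, 165 for Cd68 and 217 for Ikzf1 to 4981 for Arhgdib.

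Around the PI3K genes, 65 genes of 7 pathway lists were examined, of which 61 were tested. Of these 61, 5 were called higher, 5 lower and 51 not called. Over all genes tested, 8.16% were called higher and 6.55% lower, and the counts of each list below are to be read beside these shares. The median log2 fold difference of the 61 was -0.10, against -0.0032 over all genes tested. The called genes were spread over 5 of the lists. Among the other PI3K family members, 1 of 6 was called, Pik3c2g, a class II enzyme, with 60 reads in ctrl and 1 in M2 (limit nearest to 0 on the log2 scale -3.44, adjusted p = 5.49e-17, exact binomial test). None of the 10 receptor adaptors upstream of PI3K was called (median -0.23). The docking protein gene Gab1 had 6732 and 3681 reads (log2 fold difference -0.94), close to the 2-fold threshold, and the insulin receptor substrate gene Irs1 had 5226 and 3359 (-0.71).

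The lipid phosphatases, which remove PIP3 or its products, had a median of -0.40, with 0 of 6 tested called by the exact binomial test. Inppl1, the gene of SHIP2, had 3073 and 2388 reads (-0.43). Inpp5d, the gene of the leukocyte phosphatase SHIP1, had 0 and 1 read. Among 18 AKT and mTOR kinases and their regulators (median 0.03), only Sgk1 was called, with 3199 and 7778 reads (log2 fold difference 1.21, 1.15 to 1.27). SGK1 is an AKT-related kinase. Of the 4 FOXO factors, several of which AKT keeps out of the nucleus, Foxo6 was called lower at a low level (52 and 13 reads, -1.99, adjusted p = 1.13e-06, exact binomial test). Foxo1 went the other way and was not called (2547 and 4462 reads, 0.74). Foxo3 (-0.40) and Foxo4 (-0.31) were not called either.

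Among 10 exchange factors and adaptors that bind PIP3, Vav1, a haematopoietic Rac exchange factor, was called higher (12 and 51 reads, log2 fold difference 1.93, adjusted p = 5.40e-06, exact binomial test) and Prex2 lower (41 and 12 reads, -1.76, adjusted p = 7.95e-05). The partners of leukocyte receptors split in direction, with 3 called higher and 2 lower of 7 tested (median 0.87). Among those called higher were the kinase genes Syk (21 and 147 reads, 2.68, adjusted p = 2.42e-22) and Fgr (14 and 70 reads, 2.17, adjusted p = 4.55e-09). Called lower were the adaptor genes Lcp2 (131 and 40 reads, -1.76, adjusted p = 8.20e-13) and Blnk (802 and 420 reads, interval -1.18 to -0.83, adjusted p = 2.40e-31), the last at the 2-fold threshold and not called in edgeR's exactTest at an assumed coefficient of variation of 0.2 (adjusted p = 0.153).

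**Figure D5:**
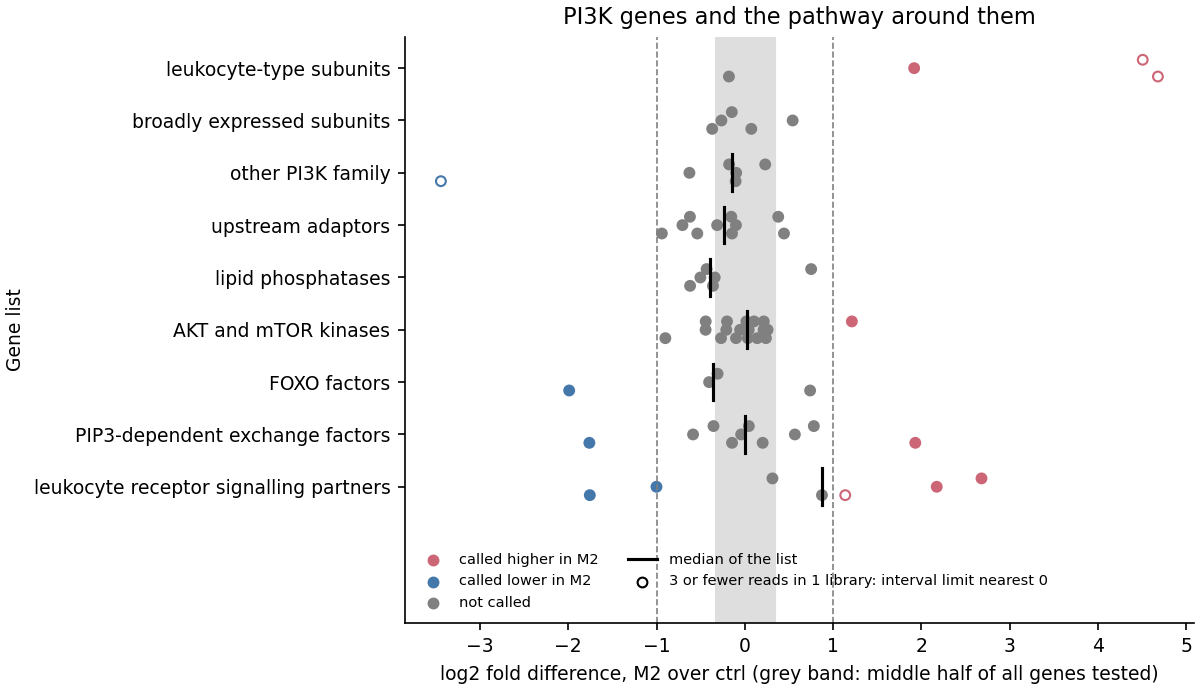
Log2 fold difference, M2 over ctrl, of every tested gene of the PI3K classes and 7 pathway lists, with the median of each pathway list as a bar and the range between the quartiles of all genes tested as a grey band (-0.32 to 0.35). Open markers show the interval limit nearest to 0 for genes with 3 or fewer reads in a library. Of 4 leukocyte-type genes tested, 3 were called higher. Of 7 leukocyte receptor partners tested, 3 were called higher and 2 lower. The shares over all genes tested were 8.16% higher and 6.55% lower.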

How the data were processed

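RNA of 1 ctrl and 1 M2 library was sequenced on an Illumina HiSeq X, and groups were taken from the labels. The authors deposited a table of unnormalized read counts and the length of each gene. GRCm38 and mm10 are named in the submitters' processing notes; the aligner, counter and strand setting are not given in the sources used here. The labels name a column kit for extraction and the study's methods RNAiso Plus. A microarray is named in the series text, but the values are whole sequencing counts.

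Library sizes were scaled by TMM (factors 1.02 and 0.980, edgeR 4.0.16, R 4.3.3). Log2 fold differences used a pseudocount of 1. Genes with at least 10 reads in all were tested by a two-sided exact binomial test with Benjamini-Hochberg adjustment; the edgeR quasi-likelihood test could not be fitted with 1 library per group. Intervals are 95% Clopper-Pearson for fold differences, Wilson for shares of reads and from the log odds for shares per kilobase, and floors are 3 reads. With 1 library per group, these intervals cover counting error only. No molecular identifiers are stated, so copies of the same molecule may be counted as separate reads, which the intervals do not allow for. Where a library held 3 reads or fewer of a gene, the limit nearest to 0 or the ratio with its interval is given. The functions were tested on simulated data. Alternatives were other scalings (DESeq2 1.42.0 size factors among them), pseudocounts, filters, fold thresholds, a gene length correction and an assumed variation. All 10 members are named, with each called gene of the pathway and marker lists, and the 2 with the most reads of a list with none called; other genes were named after seeing their values, and some genes that the rule names are not reported here. The members and lists were chosen with earlier results of these data known. Other libraries of the study were not analysed here.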

Additional observations from a re-analysis of the deposited data

How the results depend on the processing

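No paired analysis was possible because ctrl and M2 hold 1 library each. Over the scalings, pseudocounts, filters and assumed variations tried, no tested member changed sign, with log2 fold differences of 1.84 to 1.96 for Pik3cd and 0.48 to 0.57 for Pik3r3. Under a filter of 1 CPM in each library, 0 members were called higher, since Pik3cd (0.983 CPM in ctrl), Pik3r5 and Pik3ap1 left the test. Pik3cd also lost its call at a 4-fold threshold and at an assumed coefficient of variation of 0.4. Pathway genes called higher and lower were 1 and 2 at 1 CPM, 3 and 1 at 4-fold and 9 and 11 at 1.5-fold, 4 were lower with DESeq2 size factors, upper quartile factors, a pseudocount of 3 or the length correction, 3 at an assumed variation of 0.2, and 0 and 1 were called at 0.4. All genes called numbered 2496, 1655 and 305 at assumed variations of 0.1, 0.2 and 0.4, against 1570 higher and 1260 lower by counting error. The broadly expressed log2 ratio was -0.15 scaled by total reads, -0.031 with the length trend removed, -0.057 per kilobase, -0.15 without Pik3r3 and 0.088 without Pik3r1. The leukocyte-type ratio was 3.70 per kilobase, 2.34 without Pik3ap1 and 2.56 without Pik3r5. Leaving out Pik3r1 and leaving out Pik3r5 were chosen after seeing the data. By reads without length, Pik3ca took 49.3% in ctrl and 55.0% in M2, Pik3cd 4.04% in M2, and Pik3r1 85.0% and 80.6%. Genes at a few reads in ctrl limit the precision of the leukocyte-type differences.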
